A study of Mus musculus with 2 samples.

Results

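Amino acid transporters of the solute carrier families SLC1, SLC3, SLC6, SLC7, SLC36, SLC38 and SLC43 were followed in dendritic cells (DC), which present antigen to T cells. The members are the genes whose mouse symbol names a numbered gene of those 7 families. The RefSeq gene table held 61 such symbols, and 47 of them had a row in at least 1 of the deposited tables, out of 18090 gene identifiers in all. RNA was sequenced in 1 library of mature DC and 1 library of immature DC. Both were grown from the bone marrow of C57BL/6 mice for 6 days in RPMI-1640 medium with the growth factors GM-CSF (dose 10 ng/ml) and IL-4 (dose 1 ng/ml), and both were sorted on surface CD86 and I-Ab, with gates not given in the sources used here. Lipopolysaccharide (LPS), a bacterial cell wall component, is stated at 100 ng/ml for 24 h for a sample numbered 2, read here as the mature cells. Whether the immature cells spent the same extra time in culture is not stated. The number of animals is not stated either. With 1 library per state there was no replicate check, no test between states was made, and every difference is one between these 2 libraries.

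Amino acids cross membranes through carriers that differ in the ion they couple to and in whether they exchange one amino acid for another. Light chains of the SLC7 family reach the cell surface as a disulfide-linked pair with an SLC3 heavy chain, CD98 (Slc3a2) for many of them and Slc3a1 for others, and the SLC7 cationic carriers work alone. SLC1, SLC6 and SLC38 carriers use the sodium gradient, some SLC36 carriers such as Slc36a1 use protons, and SLC43 carriers are facilitative. In myeloid cells these proteins feed protein synthesis, glutathione, nitric oxide and the nutrient-sensing kinase complex mTORC1. Several SLC6 members carry other small molecules, such as taurine, creatine or neurotransmitters, and are kept here because the symbol alone chose the members.

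Reads on genes came to 8.07 M in the mature library, over 16646 genes, and to 7.56 M in the immature library, over 16573 genes. Levels are in RPKM, which divides a gene's reads by the length of its gene model and by the reads counted in its library. All 7 genes of a DC marker list had reads in both libraries, with 2 called higher (Zbtb46 and Flt3) and 1 called lower (Itgax). Their summed level was 5330 RPKM in the mature and 8021 RPKM in the immature library. Cd74 alone gave 2910 RPKM of the mature and 5173 RPKM of the immature sum. Zbtb46 stood at 13.22 RPKM in the mature and 4.515 RPKM in the immature library, and Flt3 at 3.279 RPKM and 0.7217 RPKM. All 6 markers of mature DC were higher by 2-fold or more, with a summed level of 1242 RPKM in the mature and 124.5 RPKM in the immature library. Cd86, 1 of these 6, encodes a protein that the cells were sorted on, so it is not independent of the sort. The same holds for H2-Aa and H2-Ab1 of the DC marker list, which encode the chains of I-Ab. Markers of other marrow cells differed as well: 8 of 8 neutrophil and precursor genes were at least 2-fold lower, with a summed level of 849.7 RPKM in the mature and 6742 RPKM in the immature library. Of 7 macrophage and monocyte genes 3 were lower, with sums of 673.4 RPKM in the mature and 1229 RPKM in the immature library. The eosinophil, basophil and mast cell list summed to 8.81 RPKM in the mature and 185.8 RPKM in the immature library, with 4 of 5 compared genes lower and Ms4a2 at 0 in both. B cell, T and NK cell, erythroid and stromal lists summed to between 0.2603 and 3.718 RPKM in either library, with Klrb1c at 0 reads in the mature, Ncr1 at 0 in the immature, and Hba-a1 and Hba-a2 at 0 in both. The part of such cells in the transporter values was not tested, and in bulk RNA fewer cells of a type and less RNA per cell cannot be told apart.

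Of the 47 members, 29 had at least 20 reads in the 2 libraries together and are described one by one, and 18 had fewer. The boundary fell between Slc6a18 with 31 reads and Slc7a4 with 18 reads. A member was compared when it reached 1 RPKM in a library, and called when log2 of (mature RPKM + 1) over (immature RPKM + 1) was at least 1 in size, that is 2-fold. Adding 1 RPKM makes the change of scarce transcripts look smaller than it is. On that scale 5 of 27 compared members were called higher, beside 9.05% of all 11547 compared genes, and 5 were called lower, beside 11.3% of all genes. Each of these counts is 18.5% of the members compared, above the share of all genes in both directions, but it rests on few genes and moved with the call rule. With 5 RPKM added, 3 members were higher, beside 4.06% of all genes, and 2 lower, beside 5.94%. With the counting interval wholly beyond 2-fold, 4 were higher, beside 7.23%, and 3 lower, beside 8.67%. At 1.5-fold, 8 were higher, beside 21.4%, and 7 lower, beside 21.7%. Called higher at 2-fold were Slc7a2, Slc7a11, Slc7a7, Slc6a8 and Slc6a9, and called lower were Slc7a5, Slc6a13, Slc43a3, Slc1a5 and Slc36a3. The median log2 fold over the 27 members was -0.143, beside 0.026 over all compared genes. Plain RPKM ratios below carry exact 95% intervals in parentheses, which cover counting error only. Of the 29 described members, 12 had an interval wholly above 1, 10 wholly below 1 and 7 an interval that included 1. No such count over all genes stands beside these. A gene with many reads has a narrow interval, so the counts do not set the members apart from other genes.

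**Figure D1:**
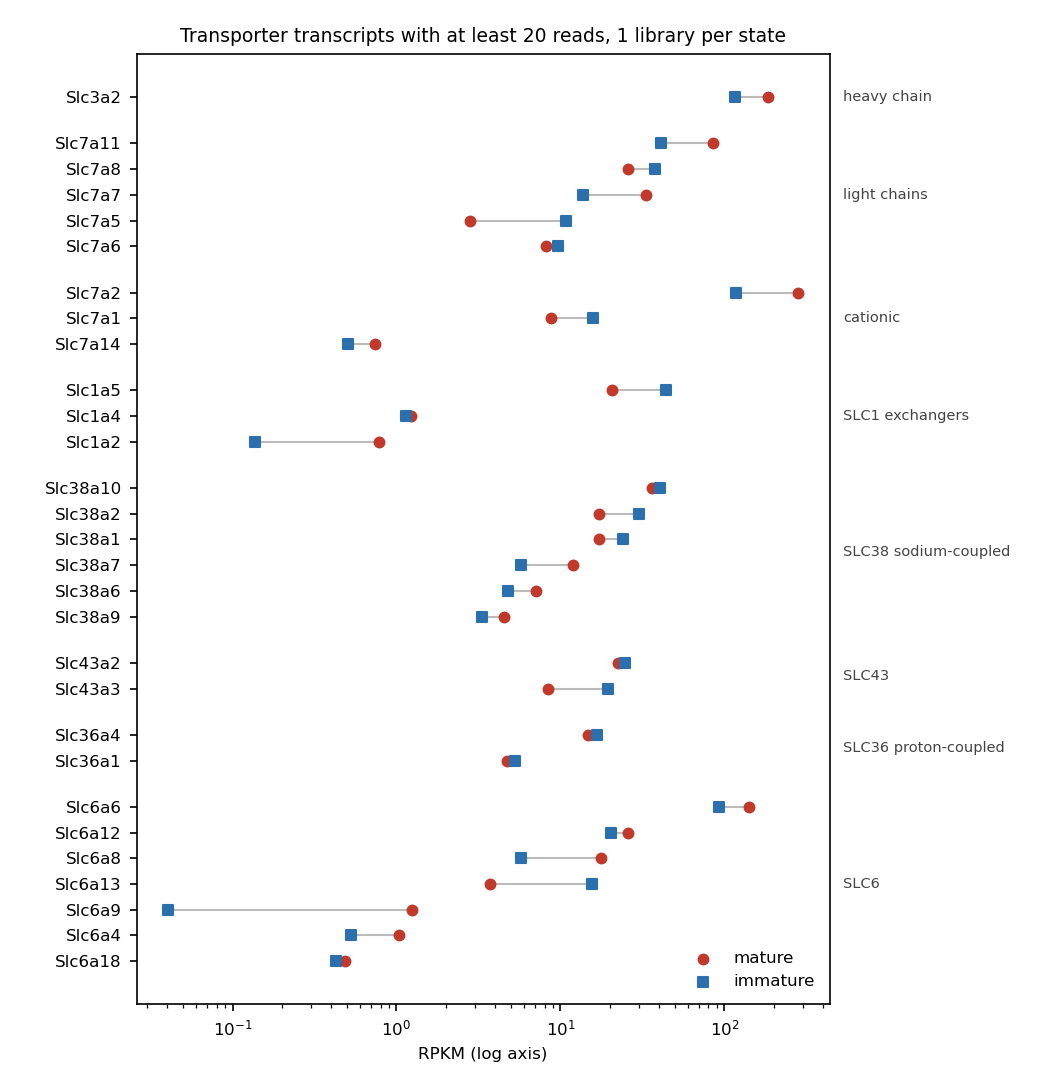
Level of each of the 29 members with at least 20 reads, in RPKM on a log axis, with circles for the mature library and squares for the immature library, grouped by kind of carrier. Slc7a2, Slc3a2, Slc6a6 and Slc7a11 lie furthest right in the mature library, and the lines run in both directions within most groups.

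Read per family, transcript levels were concentrated in few genes. All members together summed to 988.9 RPKM in the mature library, against 721.9 RPKM in the immature library, a ratio of 1.37. The same genes took 0.551% of mature reads and 0.36% of immature reads, a ratio of 1.53 (1.51 to 1.55) in shares of reads, where long genes weigh more. Slc7a2 alone made up 28.4% of the summed RPKM in the mature and 16.3% in the immature library, and without it the sums stood at 707.7 RPKM in the mature and 604.2 RPKM in the immature library, a ratio of 1.17. The 4 most abundant members of the mature library, Slc7a2, Slc3a2, Slc6a6 and Slc7a11, made up 69.8% of the summed RPKM in the mature and 51% in the immature library, where Slc1a5 stood above Slc7a11. Without those 4 the sums were 298.2 RPKM in the mature and 354 RPKM in the immature library, a description only, since the 4 were picked by their mature levels.

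SLC7 held the largest sum, 446.4 RPKM in the mature and 247.6 RPKM in the immature library, a ratio of 1.8 in RPKM and of 1.95 (1.91 to 1.99) in shares of reads. SLC6 was also higher in sum, at 191.1 RPKM in the mature and 135.3 RPKM in the immature library. SLC3 stood at 184 RPKM in the mature and 116.8 RPKM in the immature library, nearly all of it Slc3a2. The other families were lower in sum. SLC1 stood furthest down, at 22.81 RPKM in the mature and 45.69 RPKM in the immature library, and SLC43 at 30.89 RPKM in the mature and 44.48 RPKM in the immature library. SLC38 stood at 94.2 RPKM in the mature and 108.7 RPKM in the immature library, and SLC36 at 19.49 RPKM in the mature and 23.39 RPKM in the immature library. The sums lean on single genes. Slc7a2 gave 281.2 RPKM of the mature and 117.8 RPKM of the immature SLC7 sum. Slc6a6 gave 140.7 RPKM and 92.24 RPKM of the SLC6 sums. The median log2 fold of compared members was -0.210 for SLC7 and 0.092 for SLC38, opposite in sign to their sums. In the other families the median and the sum went the same way. At the 2-fold mark SLC7 had 3 members higher and 1 lower of 7 compared, and SLC6 had 2 higher and 1 lower of 6. SLC38 had 0 of 6 in either direction. Beside these stand 9.05% of all compared genes called higher and 11.3% called lower. Families this small were not tested against those shares.

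**Figure D2:**
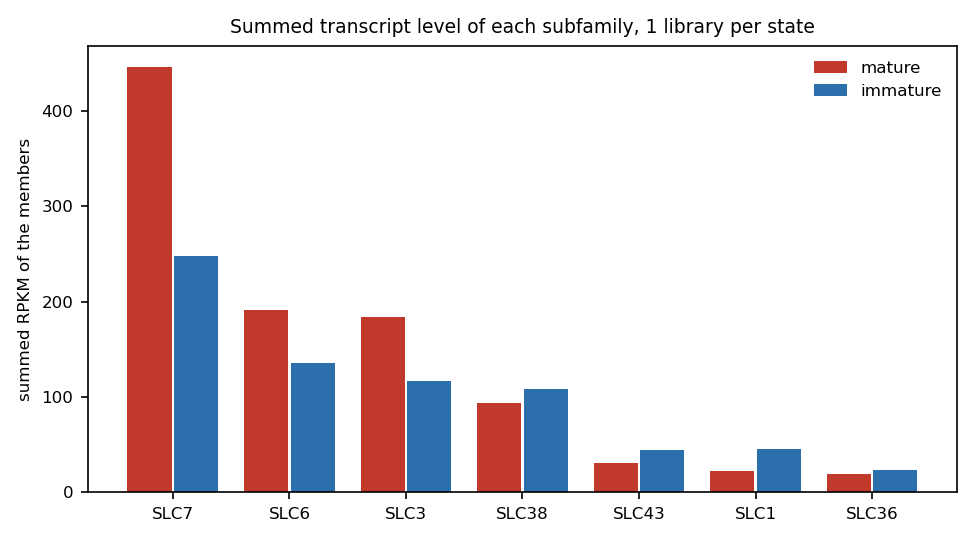
Summed RPKM of the members of each family, with the mature library on the left of each pair and the immature library on the right. SLC7, SLC6 and SLC3 were higher in sum in the mature library, and SLC38, SLC43, SLC1 and SLC36 lower.

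Among the partners of the heterodimers, the heavy chain and the summed light chains were both higher in the mature library, and the make-up of the light chains differed. Slc3a2 (Entrez Gene 17254), the CD98 heavy chain, stood at 183.9 RPKM on 4176 reads in the mature library and at 116.8 RPKM on 2485 reads in the immature library, 1.57-fold higher (1.5 to 1.66). Its known light chain partners summed to 154.9 RPKM in the mature and 113 RPKM in the immature library, a ratio of 1.37. Slc7a11 gave 84.87 RPKM of the mature and 41.12 RPKM of the immature sum. Without Slc7a11 the light chain sum was not higher in the mature library. Light chain transcripts per Slc3a2 transcript, on the RPKM scale, were 0.842 in the mature and 0.968 in the immature library. Slc3a2 reads lay on 82.26% of its length in the mature and 77.32% in the immature library. Genes of like read density had medians of 96.6% and 95.4%, so its level rests on part of the gene model. Slc7a7 and Slc7a5 lay below such medians too, and Slc7a11, Slc7a8 and Slc7a6 above them.

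Slc7a11 (26570), the cystine and glutamate exchanger xCT that supplies cysteine for glutathione, stood at 84.87 RPKM on 6322 reads in the mature library, against 41.12 RPKM on 2870 reads in the immature library, 2.06-fold higher (1.97 to 2.16). It made up 54.8% of the light chain sum in the mature and 36.4% in the immature library. This call lay at the threshold, with a log2 fold of 1.03 with 1 RPKM added; under an edgeR TMM scaling, with the gene length trend removed, with 5 RPKM added, or by its interval, Slc7a11 was no longer called. Slc7a7 (20540), the y+LAT1 chain that exports cationic amino acids in exchange for neutral ones, stood at 33.38 RPKM on 614 reads in the mature and 13.81 RPKM on 238 reads in the immature library, 2.42-fold higher (2.08 to 2.82). Its share of the light chain sum was 21.6% in the mature and 12.2% in the immature library. In the GENCODE annotation 232 exon bases of Slc7a7 lie across exons of Oxa1l on the opposite strand, and whether counting used strand is not given. Oxa1l itself stood at 24.78 RPKM in the mature and 18.31 RPKM in the immature library, a smaller ratio of 1.35.

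Of the other light chains, Slc7a5 and Slc7a8 were lower in the mature library. Slc7a5 (20539), the LAT1 chain for large neutral amino acids such as leucine, stood at 2.821 RPKM on 80 reads in the mature library, against 10.84 RPKM on 288 reads in the immature library, 3.84-fold lower (2.99 to 4.99). Its share of the light chain sum was 1.82% in the mature and 9.59% in the immature library. Reads lay on 34.7% of its length in the mature and 41.39% in the immature library, where genes of like read density had medians of 51.8% and 82.5%, so its level rests on part of the gene model. Slc7a8 (50934), the LAT2 chain with a related substrate range, stood at 25.66 RPKM in the mature and 37.64 RPKM in the immature library, 1.47-fold lower (1.34 to 1.6), which is short of 2-fold. Slc7a6 (330836), the y+LAT2 chain, stood at 8.169 RPKM in the mature and 9.606 RPKM in the immature library, and its ratio interval (0.713 to 1.01) included 1.

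**Figure D3:**
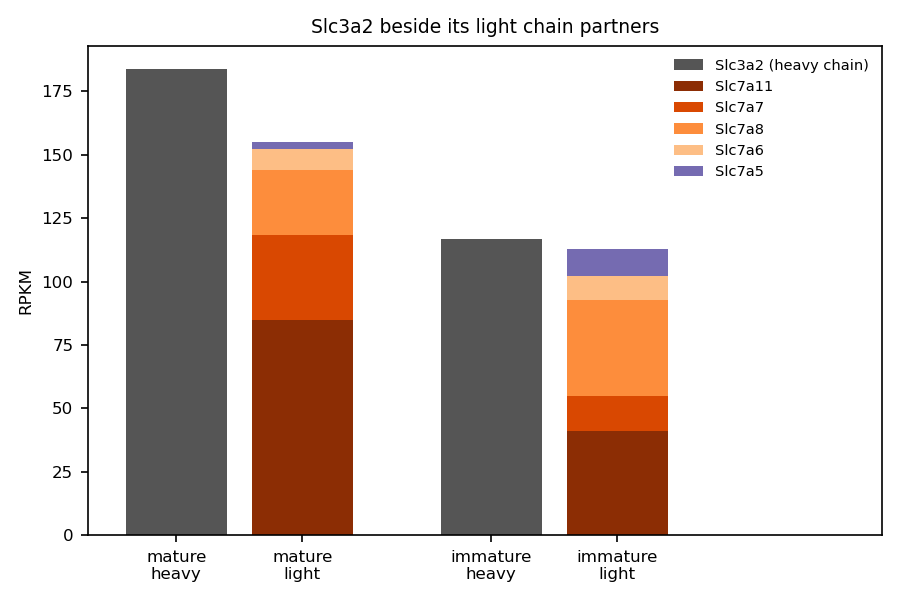
RPKM of the heavy chain Slc3a2 beside the stacked RPKM of its 5 detected light chain partners, mature library on the left and immature library on the right. The Slc7a11 and Slc7a7 segments are taller in the mature library and the Slc7a8 and Slc7a5 segments shorter.

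The upstream sequences of Slc7a11 and Slc7a7 are shown because both genes were called higher and both hold letters of the composite element bound by ATF4, a factor of the amino acid response, with C/EBP factors. Each is a RefSeq promoter window of assembly GRCm38.p6, from 250 bases before to 50 bases after an annotated start, written 5′ to 3′ on the gene's strand, with matches to TGATGNAA on either strand in capitals. The Slc7a11 window is chr3:50443564-50443863 on the minus strand, and the Slc7a7 window, at 1 of several annotated starts, is chr14:54417895-54418194 on the minus strand.
Slc7a11: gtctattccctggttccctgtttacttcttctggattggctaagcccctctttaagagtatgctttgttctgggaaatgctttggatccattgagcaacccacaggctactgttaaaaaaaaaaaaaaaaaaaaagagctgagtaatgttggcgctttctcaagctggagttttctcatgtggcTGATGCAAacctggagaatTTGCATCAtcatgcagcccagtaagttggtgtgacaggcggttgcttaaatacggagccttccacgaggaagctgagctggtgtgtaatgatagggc
Slc7a7: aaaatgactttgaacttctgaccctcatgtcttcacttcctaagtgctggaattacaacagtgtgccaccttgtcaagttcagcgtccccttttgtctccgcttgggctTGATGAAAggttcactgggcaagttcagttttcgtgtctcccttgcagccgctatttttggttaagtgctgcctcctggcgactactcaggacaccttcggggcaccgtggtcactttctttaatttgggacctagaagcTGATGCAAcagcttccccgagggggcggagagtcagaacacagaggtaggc
In the Slc7a11 window the 8 letters occur once on each strand, beginning 66 and 47 bases before the start. In the Slc7a7 window they begin 141 bases and 1 base before the start. Of all 32851 promoter windows, 3.97% hold TGATGNAA on either strand. For 21 of the 29 described members 36 windows were given, and 4 of these 36 hold it. They belong to Slc7a11, to Slc7a7, whose 2 matching windows overlap and share 1 match, and to Slc1a4, which lay within 2-fold. Another 3 motifs were searched in the same way on both strands. TGACNNNGC, the core of the antioxidant response element, occurs in 12.4% of all windows and in 8 of the 36 windows of members. CACGTG, an E-box, occurs in 7.15% of all windows and in 3 of the 36, and a kappa B element, GGG then any 2 bases then TTTCC, in 1.63% of all windows and in 2 of the 36. These 3 motifs are not among the letters of the Slc7a11 and Slc7a7 windows. In the Slc36a1 window an E-box and an antioxidant match share bases. Among called members, Slc6a9 (higher) and Slc6a13 (lower) also hold the antioxidant core, and Slc6a13 a kappa B element. Their windows are not printed. A match is a description of letters, not of binding. Slc1a5, Slc38a1, Slc43a3, Slc6a18, Slc6a6, Slc6a8, Slc7a2 and Slc7a5 had no window in the table. Of these, Slc6a8 and Slc7a2 were called higher, and Slc1a5, Slc43a3 and Slc7a5 lower. Motifs were therefore not compared between members called higher and lower.

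The cationic carriers diverged. Slc7a2 (11988), the CAT2 carrier of arginine and other cationic amino acids, was the most abundant member in both libraries, in the immature one only just ahead of Slc3a2. It stood at 281.2 RPKM on 17552 reads in the mature library, against 117.8 RPKM on 6888 reads in the immature library, 2.39-fold higher (2.32 to 2.46). By RPKM it ranked 180 among all genes in the mature and 576 in the immature library, and its reads covered 99.22% and 97.85% of its length there. Slc7a2 was called in each of the 12 other settings run for the calls. With the gene length trend removed, however, its plain log2 ratio fell from 1.255 to 1.014, outside its counting interval and close to the mark. Slc7a1 (11987), the widely expressed CAT1 carrier for the same substrates, went the other way, at 8.814 RPKM on 512 reads in the mature and 15.77 RPKM on 858 reads in the immature library, 1.79-fold lower (1.6 to 2). It was called lower once the gene length trend was removed. Slc7a2 transcripts were 31.9 times those of Slc7a1 in the mature and 7.47 times in the immature library, on the RPKM scale. In the GENCODE annotation 635 exon bases of Slc7a2 lie across the noncoding Gm26584 on the opposite strand. Slc7a14 (241919), a relative of these carriers, stood at 0.7402 RPKM on 53 reads in the mature and 0.5069 RPKM on 34 reads in the immature library, a ratio of 1.46 (0.932 to 2.32). These reads lay on 2.88% of its length in the mature and 2.1% in the immature library, a small stretch of the gene.

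The plasma membrane glutamine carriers Slc1a5, Slc38a1 and Slc38a2 were each lower in the mature library, and Slc1a5 alone of these 3 passed 2-fold. Slc1a5 (20514), the ASCT2 exchanger that brings in glutamine, stood at 20.66 RPKM on 460 reads in the mature library, against 44.29 RPKM on 924 reads in the immature library, 2.14-fold lower (1.92 to 2.4). Slc1a5 was no longer called with RPKM rescaled to a common sum, with 5 RPKM added, or when the interval had to lie wholly beyond 2-fold. Slc38a2 (67760), the SNAT2 carrier known to be induced by amino acid shortage, stood at 17.23 RPKM in the mature and 30.26 RPKM in the immature library, 1.76-fold lower (1.59 to 1.94). Slc38a1 (105727), the related SNAT1 carrier, stood at 17.29 RPKM in the mature and 24.12 RPKM in the immature library, 1.39-fold lower (1.29 to 1.51). The 3 summed to 55.17 RPKM in the mature and 98.67 RPKM in the immature library, 1.79-fold lower, a grouping chosen after their values were seen. Slc38a10 (72055) lay closer to even, at 36.04 RPKM in the mature and 40.48 RPKM in the immature library, 1.12-fold lower (1.04 to 1.21).

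The other SLC1 members were scarce. Slc1a4 (55963), the ASCT1 exchanger of alanine, serine and cysteine, had 39 reads in the mature and 34 in the immature library, a ratio of 1.07 (0.661 to 1.75). Slc1a2 (20511), the glutamate carrier known from astrocytes, stood under 1 RPKM in both libraries, at 0.7814 RPKM on 73 reads in the mature and 0.1371 RPKM on 12 reads in the immature library, a ratio of 5.7 (3.07 to 11.5), and so was not among the compared members. Those 12 reads lay on 0.86% of its length, against a median of 4.82% for genes of like read density, and the 73 mature reads lay on 17.76%, against 21.4%, so the immature reads came from a small stretch of the gene.

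Members known from lysosomes, a grouping chosen after their values were seen, were higher in the case of Slc38a7 and Slc38a9 and near even in the case of Slc36a1 and Slc36a4. Together they summed to 35.99 RPKM in the mature and 31.14 RPKM in the immature library. Slc38a7 (234595), the SNAT7 carrier that exports glutamine and asparagine from lysosomes, stood at 12 RPKM on 318 reads in the mature library, against 5.72 RPKM on 142 reads in the immature library. Its plain ratio was 2.1 (1.72 to 2.58), while its log2 fold with 1 RPKM added was 0.952, just short of a call, and it was called with 0.1 RPKM added and under either rescaling to a common sum. Slc38a9 (268706), the lysosomal arginine sensor of the mTORC1 pathway, stood at 4.503 RPKM in the mature and 3.323 RPKM in the immature library, a ratio of 1.36 (1.14 to 1.61). The proton-coupled Slc36a1 (215335, PAT1), which lets small neutral amino acids out of lysosomes, stood at 4.715 RPKM in the mature and 5.309 RPKM in the immature library, a ratio of 0.888 (0.729 to 1.08). Slc36a4 (234967, PAT4), of the same family, stood at 14.77 RPKM in the mature and 16.79 RPKM in the immature library, a ratio of 0.88 (0.732 to 1.06). For both of these members the interval included 1. Slc38a6 (625098), of the same family as Slc38a7, stood at 7.116 RPKM on 106 reads in the mature and 4.801 RPKM on 67 reads in the immature library, a ratio of 1.48 (1.08 to 2.04).

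Of the SLC43 carriers, Slc43a2 (215113, LAT4), a facilitative carrier of branched-chain amino acids, stood at 22.38 RPKM in the mature and 24.88 RPKM in the immature library, 1.11-fold lower (1.01 to 1.23). In the GENCODE annotation 922 of its exon bases lie across the antisense gene Gm45606. Slc43a3 (58207), which carries purine nucleobases rather than amino acids, stood at 8.414 RPKM on 176 reads in the mature library, against 19.59 RPKM on 384 reads in the immature library, 2.33-fold lower (1.94 to 2.8). Slc43a3 was no longer called with 5 RPKM added or when the interval had to lie wholly beyond 2-fold.

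SLC6 members carry mostly other small molecules, and they split too. Slc6a6 (21366), the taurine carrier, was the third most abundant member of the mature library, at 140.7 RPKM on 7009 reads, against 92.24 RPKM on 4304 reads in the immature library, 1.53-fold higher (1.47 to 1.58). Slc6a8 (102857), the creatine carrier, stood at 17.59 RPKM on 567 reads in the mature library, against 5.73 RPKM on 173 reads in the immature library, 3.07-fold higher (2.59 to 3.66). Among called members with over 100 reads, this was the widest ratio upward.

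Slc6a12 and Slc6a13 are neighbouring genes for carriers of GABA, with betaine also a substrate of the Slc6a12 product and taurine of the Slc6a13 product. Slc6a12 (14411) stood at 25.85 RPKM in the mature and 20.43 RPKM in the immature library, 1.27-fold higher (1.11 to 1.44). Slc6a13 (14412) stood at 3.745 RPKM on 65 reads in the mature library, against 15.62 RPKM on 254 reads in the immature library, 4.17-fold lower (3.17 to 5.57). Slc6a13 reads lay on 23.4% of its length in the mature and 27.3% in the immature library, where genes of like read density had medians of 58.5% and 86.9%, so they came from part of the gene model.

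Rare SLC6 transcripts had few reads. Slc6a9 (14664), the glycine carrier GlyT1, had 33 reads in the mature and 1 in the immature library, a ratio of 30.9 (5.18 to 1258), at 1.249 RPKM in the mature and 0.04041 RPKM in the immature library. In the GENCODE annotation 1429 of its exon bases lie across Ccdc24 on the opposite strand, so the gene of origin of these reads is uncertain. Slc6a4 (15567), the serotonin carrier, had 23 reads in the mature and 11 in the immature library, a ratio of 1.96 with an interval (0.917 to 4.45) that included 1. Slc6a18 (22598), a carrier known from kidney, had 17 reads in the mature and 14 in the immature library on 1.76% and 2.87% of its length, a ratio of 1.14 (0.528 to 2.49). Slc6a9 was not called with 5 RPKM added or with a minimum of 5 RPKM. Exons of Slc6a6, Slc1a2, Slc38a9 and Slc38a10 also lie across noncoding or unclassified genes of the opposite strand, over 117, 189, 182 and 367 bases in that order.

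**Figure D4:**
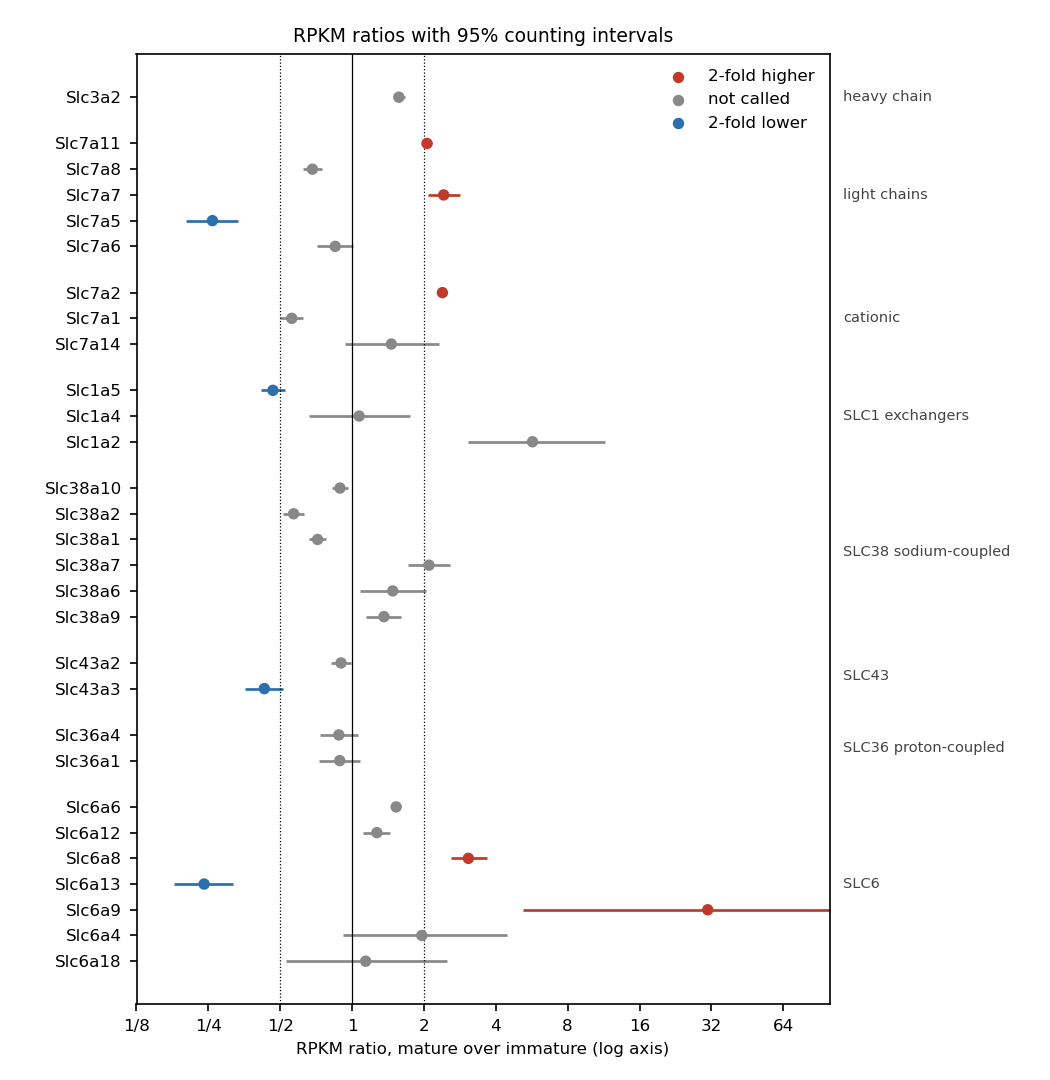
RPKM ratio of mature over immature for the 29 members on a log axis, with lines for the 95% counting interval and dotted lines at 2-fold. Red marks members called at least 2-fold higher and blue those called lower, on the scale with 1 RPKM added; the interval of Slc6a9 runs past the right edge.

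Of the 18 members under 20 reads, Slc36a3 (215332), of the SLC36 family, was compared, since it reached 1.128 RPKM in the immature library on 15 reads and had 0 reads in the mature one. Set to a floor of 3 reads there, it was 5.34-fold lower. Its exact 95% counting interval reached down to 3.83-fold, so 5.34-fold is not a lower bound. Slc7a4 had 9 reads in each library. The other 16 had 1 to 6 reads in all: Slc6a15, Slc7a3, Slc1a1, Slc6a3, Slc6a17, Slc36a2, Slc6a2, Slc7a13, Slc1a7, Slc3a1, Slc43a1, Slc38a4, Slc6a11, Slc6a19, Slc6a7 and Slc7a15. Among the 14 symbols with no row in either table were Slc1a3, Slc1a6, Slc38a3, Slc38a5, Slc38a8, Slc38a11, Slc6a5, Slc6a14, Slc6a16, Slc6a21, Slc7a9, Slc7a10 and Slc7a12. Slc3a1, the heavy chain of the kidney cystine carrier, thus had 2 mature reads and 0 immature reads, and its light chain Slc7a9 had no row.

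**Figure D5:**
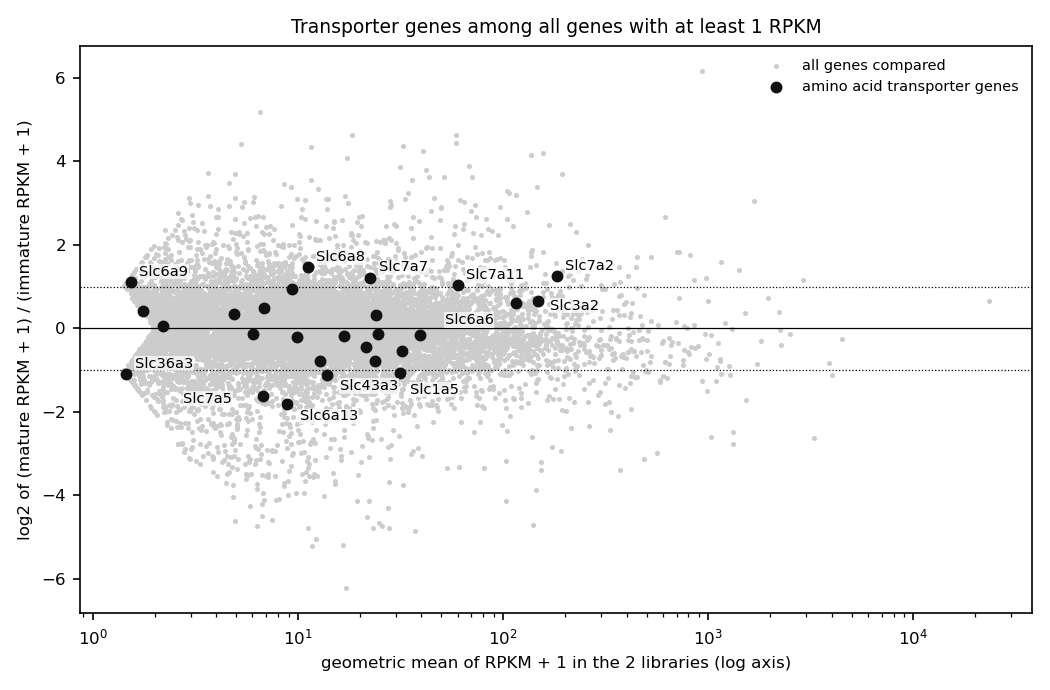
Log2 fold of mature over immature, with 1 RPKM added, against the geometric mean of RPKM + 1, for all 11547 compared genes in grey and the 27 compared members in black, with dotted lines at 2-fold. The members lie inside the cloud of all genes, and their log2 folds run from -1.81 for Slc6a13 to 1.47 for Slc6a8.

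Genes of amino acid handling outside these families were counted in the same way, with counts to be read beside the 9.05% of all compared genes called higher and the 11.3% called lower, and median log2 folds beside 0.026. Of 9 compared mitochondrial amino acid carriers, 0 were at least 2-fold apart in either direction, with a median of -0.189. Of 6 amino acid and peptide transporters of other families, 5 of them known from lysosomes and the other, Slc16a10, from the plasma membrane, 1 was higher and 0 lower, with a median of 0.108. This was Mfsd12, needed for cysteine import into lysosomes, at 47.89 RPKM in the mature and 22.53 RPKM in the immature library, 2.13-fold higher (1.85 to 2.45). Slc15a3, a lysosomal carrier of histidine and peptides, had a level near that of Slc7a2, at 296.1 RPKM in the mature and 147.7 RPKM in the immature library, and its log2 fold of 0.999 lay just under the mark. Of 8 glutathione genes, 1 was higher and 0 lower, with a median of 0.236. Gclc, the catalytic subunit of the enzyme that joins cysteine to glutamate, stood at 40.89 RPKM in the mature and 16.46 RPKM in the immature library, 2.49-fold higher (2.17 to 2.86).

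Of 10 genes for glutamine and glutamate enzymes, 1 was higher and 2 were lower, with a median of 0.066. Gls2, a glutaminase, stood at 4.733 RPKM in the mature and 0.4837 RPKM in the immature library, 9.78-fold higher (4.94 to 22.1). Psat1, of serine synthesis, stood at 3.258 RPKM in the mature and 23.47 RPKM in the immature library, 7.21-fold lower (5.43 to 9.72). Aldh18a1, of proline synthesis, stood at 4.823 RPKM in the mature and 15.48 RPKM in the immature library, 3.21-fold lower (2.64 to 3.92). Of 7 genes of branched-chain amino acid breakdown, Ppm1k, the phosphatase that activates the rate-setting dehydrogenase, was the 1 that was higher, at 6.082 RPKM in the mature and 1.427 RPKM in the immature library, 4.26-fold (3.21 to 5.74). In that list 0 were lower, and the median was -0.138.

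In the lysosomal amino acid sensing list for mTORC1, 5 of 30 compared genes were higher, beside 9.05% of all genes, and 2 lower, beside 11.3%, with a median log2 fold of 0.290. Castor1 and Castor2, of the cytosolic arginine sensor family, were 7.12-fold (5.26 to 9.84) and 3.86-fold (3.21 to 4.66) higher. Sesn3, of the sestrin family that includes leucine sensors, was 4.57-fold higher (2.95 to 7.34), and Flcn, which acts on the Rag GTPases, 2.48-fold higher (2.13 to 2.89). The fifth, named after its value was seen, was Rptor, the scaffold subunit of mTORC1, 2.46-fold higher (2.19 to 2.76). Lamtor4 and Lamtor2, subunits of the lysosomal Ragulator anchor, were 2.38-fold (2.03 to 2.79) and 2.16-fold (1.88 to 2.48) lower.

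Among 7 known controls of transporter genes and proteins, 1 was higher and 2 were lower, with a median of -0.279. Ddit3, a stress-induced C/EBP-type factor, stood at 40.72 RPKM in the mature and 15.19 RPKM in the immature library, 2.68-fold higher (2.13 to 3.4). Myc, a growth-promoting transcription factor, stood at 2.272 RPKM in the mature and 25.68 RPKM in the immature library, 11.3-fold lower (8.29 to 15.8). Nedd4, a ubiquitin ligase acting on membrane proteins, stood at 22.93 RPKM in the mature and 49.45 RPKM in the immature library, 2.16-fold lower (2 to 2.33). Atf4 itself stood at 480 RPKM in the mature and 281.1 RPKM in the immature library, a ratio of 1.71 (1.64 to 1.78). Nfe2l2, the antioxidant response factor Nrf2, was at 42.69 RPKM in the mature and 84.88 RPKM in the immature library, 1.99-fold lower (1.83 to 2.16), and its log2 fold was just short of a call. Bach1, a repressor at antioxidant elements, and the ubiquitin ligase gene Nedd4l had ratios of 0.809 (0.71 to 0.92) and 1.47 (1.26 to 1.72).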

How the data were processed

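The 2 deposited tables list genes by Entrez number with at least 1 read. Read counts are deposited as uniquely placed reads, unnormalised, per the file headers. RPKM was made by the authors from these counts, the length of the gene model and the header total, and the formula returned every deposited value within a relative deviation of 1.07e-07. The percent of each gene model covered by reads is deposited too, per the file headers, and was used as a check. The build mm8 comes from the submitters' processing notes; the sources used here do not give the aligner, counter, strand setting or annotation. The counts sum to the header totals, so a gene without a row was taken as 0 reads. Reads that map to several places were not counted.

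Symbols came from the RefSeq table of GRCm38.p6, for 16220 of 18090 identifiers, and exon overlaps from GENCODE M21, used for relations only. Ratios carry exact Clopper-Pearson 95% intervals (scipy 1.17.1), which cover counting error only, since without molecular identifiers several reads can stem from 1 molecule. A gene at 0 reads was set to 3 reads to give a ratio, which leaves out counting error. With 3 reads, a gene of 1 kilobase stands at 0.3716 RPKM in the mature and 0.3966 RPKM in the immature library. Alternatives changed the pseudocount, filter, scaling (edgeR 4.0.16, DESeq2 1.42.0, both for factors only), gene length trend and threshold. Every member with at least 20 reads is named. Other lists name up to 4 genes in each direction and each listed control of transporter genes. Rptor and Slc15a3 were named beyond this rule after their values were seen, as were Zbtb46, Flt3, Itgax, Cd74, Cd86, H2-Aa, H2-Ab1 and Slc16a10. Members and lists were chosen with earlier results of these data known. Some single genes of these lists are not reported here.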

Additional observations from a re-analysis of the deposited data

How the results depend on the processing

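The number of members at least 2-fold higher was 5 and ranged from 3 to 8 over the alternatives, and the number lower was 5 and ranged from 2 to 7. With 5 RPKM added, 3 members were higher (Slc6a8, Slc7a2 and Slc7a7) and 2 lower (Slc6a13 and Slc7a5). Requiring the counting interval to lie wholly beyond 2-fold left 4 higher and 3 lower members, and at 1.5-fold 8 were higher and 7 lower. The summed level, at a ratio of 1.37, was 1.45 when RPKM was rescaled to a common sum, 1.47 without the 50 most abundant genes in that sum and 1.33 with TMM scaling. The gene length trend was not removed from this sum, so these values are not its full range. With that trend removed, the log2 ratio fell from 1.255 to 1.014 for Slc7a2 and from 1.045 to 0.773 for Slc7a11. It fell from 0.609 to 0.406 for Slc6a6 and from 0.655 to 0.618 for Slc3a2. The median log2 fold over members changed sign without a filter, at 0.045 over 47 members, and with a minimum of 20 reads, at 0.058 over 29. The scalings to a common sum, by TMM and by DESeq2 shifted all log2 folds by -0.038 to 0.103. No called member changed direction, but a pseudocount cannot reverse a ratio and shifts of this size cannot reverse a 2-fold one. That outcome was therefore no check. Of 203 values of single members, 176 stayed within their counting interval, which is wide for scarce genes. The 27 outside it include values of the abundant Slc7a2, Slc7a11, Slc3a2 and Slc6a6, whose intervals are narrow. No paired analysis was possible because each state has 1 library. Leaving out a replicate could not be done for the same reason. Genes with few reads, such as Slc6a9 and Slc36a3, are limited by depth.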
